A study of Mus musculus with 16 samples.

Results

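The 2 sorted cell fractions of olfactory mucosa from mice that smelled whiskey lactone are described here, on 8 of the 16 arrays of the study. These are the arrays whose titles begin with the word Odor, 4 titled GFP+ and 4 titled GFP-. They come from 4 pools of 3 mice each, and every pool gave 1 array of each title, so the arrays are compared in pairs within a pool. In every array the title and the cell type field disagree on the fraction: where one says GFP+, the other says GFP-. The fractions are called by title throughout, and a difference is always titled GFP+ minus titled GFP- on the log2 scale. Taking the cell type field instead turns the sign of every difference between fractions.

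All 24 mice of the study were S100a5-tauGFP animals of the C57BL/6 strain, of both sexes and 7 to 12 weeks old. The labels do not say how many reporter alleles they carried. Each mouse sat alone in a chamber with clean air flowing at 3.1 L/min for 40 h. From 26 h on, mice of the odor groups received whiskey lactone, a lactone that oak wood gives to aged spirits, for 10 s every 20 min, and mice of the vehicle groups received filtered air on the same schedule. Dissected mucosa was dissociated and sorted by fluorescence, and 50 to 100 ng of total RNA went into each labelling. The 8 vehicle arrays, of the same 2 fractions, serve below to show where the odor arrays differ. They also add to the estimate of spread behind every standard error, adjusted p and call.

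Olfactory sensory neurons each express 1 odorant receptor gene. Binding of an odorant activates a G protein, adenylyl cyclase and a cyclic nucleotide-gated channel, and the firing that follows alters the transcription of a set of activity-linked genes. S100a5, which encodes a calcium-binding protein of these neurons, is among the genes whose transcript depends strongly on odor-evoked activity, and the tauGFP reporter of the Kentucky assay reads out this gene. Immediate early genes, in contrast, encode transcription factors and RNA regulators that many cell types induce within minutes of a stimulus, including the stress of tissue dissociation.

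Upstream DNA is shown for S100a5, the reporter gene, and for 4 immediate early genes (Fos, Fosb, Zfp36 and Btg2) that were among the 6 of their list with the largest fraction differences. Egr1 and Egr2, also among these 6, are not shown, so the 4 are a choice and do not stand for the list. Each stretch holds the bases just before a start site in RefSeq's annotation of GRCm38.p6, read 5′ to 3′ on the gene's strand. Capitals mark 4 motifs searched on both strands: the cyclic AMP response element TGACGTCA, its half-site TGACG (which lies inside the full element), the CArG box bound by serum response factor, and TATAAA.
S100a5, chr3:90608342-90608521, plus strand: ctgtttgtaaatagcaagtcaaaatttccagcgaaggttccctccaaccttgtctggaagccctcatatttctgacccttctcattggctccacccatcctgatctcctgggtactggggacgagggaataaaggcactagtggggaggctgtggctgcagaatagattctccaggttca
Fos, chr12:85473710-85473889, plus strand: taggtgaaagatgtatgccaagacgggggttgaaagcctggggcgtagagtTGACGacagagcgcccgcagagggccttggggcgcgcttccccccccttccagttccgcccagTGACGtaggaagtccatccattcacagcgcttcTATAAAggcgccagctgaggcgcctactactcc
Fosb, chr7:19310046-19310225, minus strand: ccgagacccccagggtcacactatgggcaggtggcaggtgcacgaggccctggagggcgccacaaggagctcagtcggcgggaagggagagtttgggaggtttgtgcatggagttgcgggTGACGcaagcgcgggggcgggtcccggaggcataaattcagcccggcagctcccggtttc
Zfp36, chr7:28379229-28379408, minus strand: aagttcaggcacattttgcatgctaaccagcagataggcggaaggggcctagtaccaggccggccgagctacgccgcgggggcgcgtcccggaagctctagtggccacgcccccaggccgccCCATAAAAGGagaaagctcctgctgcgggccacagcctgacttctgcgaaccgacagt
Btg2, chr1:134079156-134079335, minus strand: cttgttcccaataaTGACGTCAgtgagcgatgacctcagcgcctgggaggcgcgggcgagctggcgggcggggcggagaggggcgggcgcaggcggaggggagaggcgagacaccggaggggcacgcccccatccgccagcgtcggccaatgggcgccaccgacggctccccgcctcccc
The shown S100a5 stretch held none of the 4 motifs. Fos held TGACG from -129 to -125 and from -66 to -62 and TATAAA from -33 to -28, counted from the start site. Fosb held TGACG from -60 to -56, Zfp36 a CArG box from -58 to -49 and Btg2 the full element from -166 to -159. Over the whole upstream windows, TGACG was present in 15 of 23 windows of immediate early genes (65.2%) and in 2 of 18 windows of activity-linked neuron genes (11.1%), against 17.8% of all 32851 windows. TGACGTCA was present in 2 and 0 of these windows, against 1.55% of all, and the CArG box in 5 (all of 2 genes) and 0, against 1.47%. TATAAA was in 2 windows of immediate early genes (8.7%) and 0 of activity-linked neuron genes, against 12.4% of all. These matches describe letters in the windows and were not tested as sites.

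Signals were log2 values of 19505 genes. Array medians over these genes were 6.67 to 7.13, the negative control features of the odor arrays had medians of 4.98 to 5.42, and 59.9 to 66.4% of genes lay above that control median. The 4 arrays titled GFP+ had the 4 highest of the 8 medians. Arrays of the same fraction correlated at 0.986 to 0.994 over all genes and arrays of different fractions at 0.930 to 0.967. A gene is called where its adjusted p in limma is below 0.05. In the odor pools 2502 genes were called higher in arrays titled GFP+ (12.8%) and 2860 lower (14.7%), and 5181 of these 5362 genes differed in 1 direction in all 4 pools. The median difference of all genes was -0.15. Scaling moved this balance: higher and lower calls were 1902 and 12906 with arrays centred on their median, 2922 and 1395 after cyclic loess, 1587 and 15297 after centring on housekeeping genes and 2964 and 1218 when the mature neuron list was the reference. The median of all genes became -0.53, -0.02, -0.75 and 0.01 in the same order, so differences smaller than these are read against that shift. Without odor pool 1 the lower calls numbered 1632, and without pool 3 1655. In such bulk samples, fewer cells of a type and less RNA per cell cannot be told apart.

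S100a5 was the gene that labels the sort. Its log2 signal after odor was, in arrays titled GFP+, 14.93, 15.24, 15.64 and 15.15 in pools 1 to 4, and 16.61, 16.55, 16.74 and 16.42 in those titled GFP-. Every array titled GFP- lay above every array titled GFP+. The difference was -1.34 ± 0.09, a 2.53-fold lower level in arrays titled GFP+ (adjusted p = 2.07e-07 in limma). Here and below, ± gives the standard error of the limma fit to all 16 arrays, not the spread of the 4 odor pools. The vehicle pools gave -1.23 ± 0.09, and the difference between treatments of -0.11 ± 0.13 was not called (adjusted p = 0.999). The S100a5 transcript was thus brighter in the fraction whose title says GFP- and whose cell type field says GFP+.

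Omp encodes olfactory marker protein, which marks mature sensory neurons. It read 18.43, 18.60, 18.54 and 18.58 in arrays titled GFP+ and 18.60, 18.61, 18.83 and 18.67 in those titled GFP-. Omp was lower in the array titled GFP+ of every pool. The groups met without overlap at 18.60, and the difference of -0.14 ± 0.05 did not pass (adjusted p = 0.0667 in limma). It turned to 0.02 with arrays centred on the mature neuron list, of which Omp is a member. Omp was bright on all 8 arrays, near the top of the signal range, where the highest feature of an odor array read 19.09 to 19.24.

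**Figure D1:**
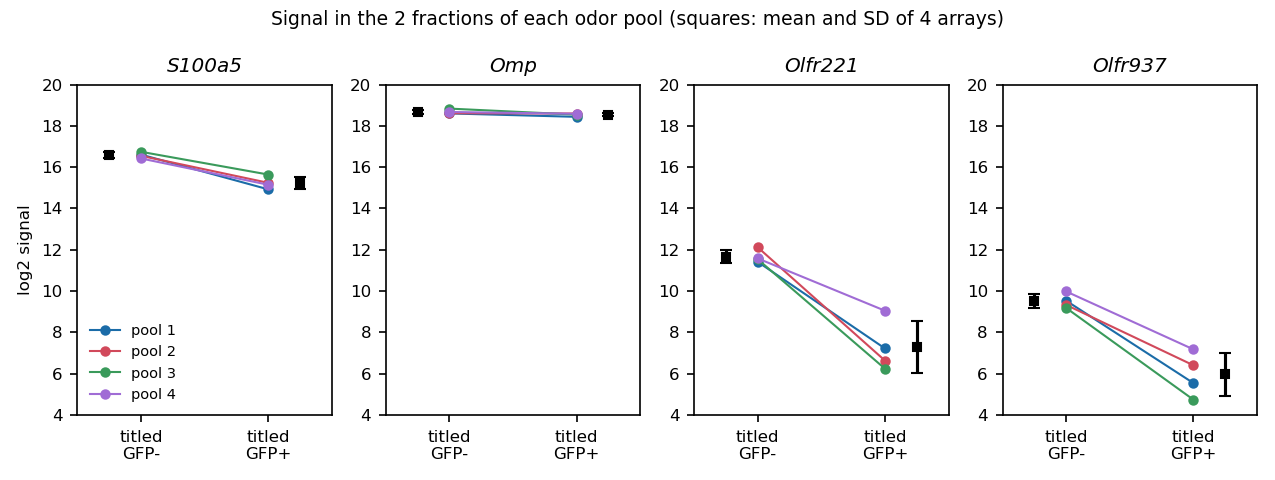
Log2 signal of S100a5, Omp, Olfr221 and Olfr937 in the arrays titled GFP- and titled GFP+ of the 4 odor pools; lines join the 2 fractions of a pool, and squares with bars give the mean and SD of 4 arrays. S100a5, Olfr221, Olfr937 and Omp were lower in the array titled GFP+ of every pool, Omp by only 0.14 on average and without being called.

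Olfr221 and Olfr937, the pair of odorant receptors listed as markers of the whiskey lactone response, were both lower in arrays titled GFP+ after odor. They were chosen with their difference known, so their p-values describe these pools and are no independent support. Olfr221 read 7.22, 6.63, 6.24 and 9.05 in arrays titled GFP+ and 11.42, 12.12, 11.54 and 11.58 in those titled GFP-. Even the highest array titled GFP+, of pool 4, lay below the lowest array titled GFP-. The level was 20.8-fold lower in arrays titled GFP+ (-4.38 ± 0.40, adjusted p = 2.19e-06).

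In the vehicle pools Olfr221 lay the other way. It read 10.41, 10.54, 10.07 and 10.13 in arrays titled GFP+ and 8.96, 8.26, 8.49 and 9.72 in arrays titled GFP-, a difference of 1.43 ± 0.40 (adjusted p = 0.0180). The groups did not overlap there either, so the order of the fractions was opposite after odor and after air. The treatments differed by -5.81 ± 0.56 (adjusted p = 0.00306), and Olfr221 was the single gene called for it among 19505 (0.00513%). Without a variance trend in the fit it was -5.81 with an adjusted p of 0.0572, and no gene was then called. Over all genes 638 had an unadjusted p below 0.05 for this difference.

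Olfr937 read 5.55, 6.41, 4.74 and 7.18 after odor in arrays titled GFP+ and 9.53, 9.33, 9.18 and 9.98 in those titled GFP-. The groups did not overlap, and the level was 11.6-fold lower in arrays titled GFP+ (-3.54 ± 0.32, adjusted p = 2.45e-06). In the vehicle pools it read 8.34, 8.30, 7.40 and 7.83 against 7.86, 8.20, 8.79 and 8.89, with pools 1 and 2 higher and pools 3 and 4 lower in the array titled GFP+. The vehicle difference of -0.46 ± 0.32 was not called (adjusted p = 0.311). The difference between treatments, -3.07 ± 0.46, did not pass over all genes (adjusted p = 0.165).

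Receptor genes next to this pair on their chromosomes had no called treatment difference. Only Olfr221 was called for it among 19505 genes (0.00513%), and Olfr937 was not. The lack of calls among neighbours is thus no result about them. In RefSeq's gene order the 3 measured receptors on either side of Olfr221 on chromosome 14 were Olfr748, Olfr749 and Olfr750 and then Olfr1513, Olfr1512 and Olfr1511. Their odor fraction differences ran from -3.59 (Olfr748) to 4.33 (Olfr750), all called, and their differences between treatments from -0.04 to 0.57. Around Olfr937 on chromosome 9, Olfr935, Olfr146 and Olfr936 were not called in the odor pools, while Olfr938 (at least 1.72-fold), Olfr27 (1.57 ± 0.17 on the log2 scale) and Olfr943 (at least 6.40-fold) were higher in arrays titled GFP+. Their differences between treatments were -0.75 to -0.08. All 12 neighbours had an adjusted p of 0.999 for the difference between treatments.

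**Figure D2:**
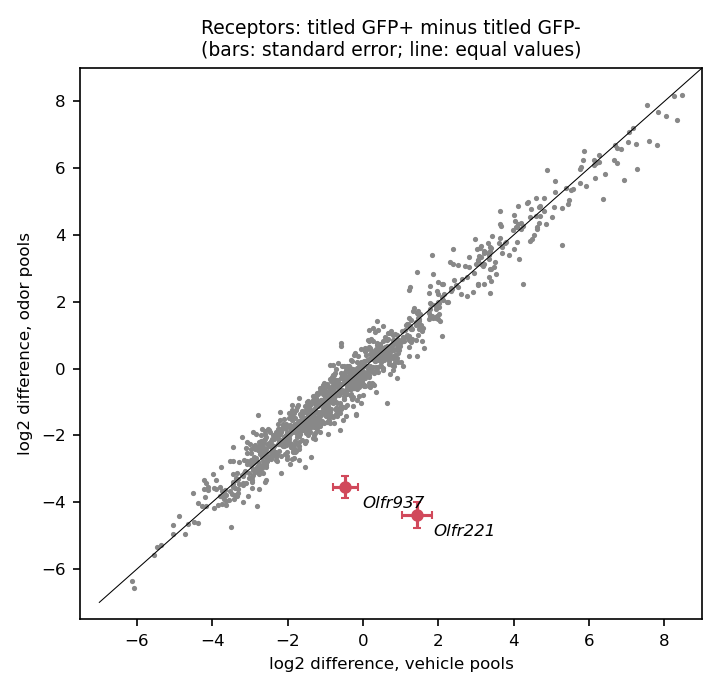
Fraction difference (log2, titled GFP+ minus titled GFP-) of the 1095 receptors in the vehicle pools (horizontal) and the odor pools (vertical); the line marks equal values. Olfr221 (1.43 and -4.38) and Olfr937 (-0.46 and -3.54) are drawn in red with standard errors and lie below the line by 5.81 and 3.07.

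The receptor repertoire as a whole was split between the fractions. Of 1095 receptors, 252 were called higher (23.0%, against 12.8% of all genes) and 535 lower (48.9%, against 14.7%) in arrays titled GFP+ after odor, and 308 did not pass. Their median difference was -0.65, against -0.15 for all genes, and it stayed below 0 under the scalings tried (-1.25 to -0.49). Receptors spread far wider than other genes: from the 5th to the 95th percentile they ran from -3.45 to 4.57, and the 18399 genes that are not receptors from -0.61 to 1.71. Among differences of at least 4-fold, 157 receptors were higher and 247 lower. The same counts for other genes were 777 and 3, so nearly all large differences in the lower direction belonged to receptors.

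**Figure D3:**
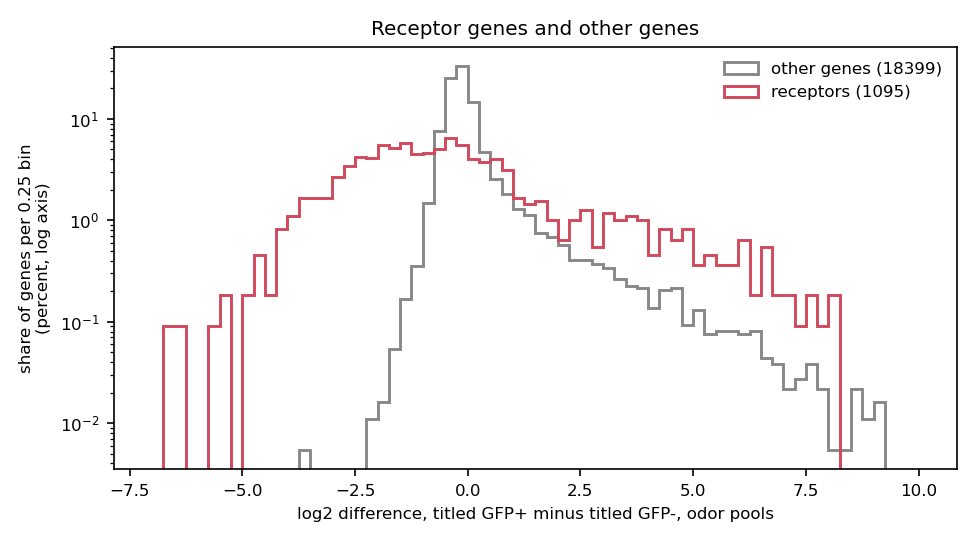
Distribution of fraction differences in the odor pools for 1095 receptors (red) and 18399 other genes (grey), as the percent of each set per bin on a log axis. Receptors reach from -6.56 to 8.18, and other genes from -3.74 to 9.10 with few below -2.

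The receptors highest in arrays titled GFP+ were dim in the other fraction. Olfr1507 read 14.06, 14.96, 14.61 and 14.56 in arrays titled GFP+ and 7.38, 5.97, 6.34 and 5.75 in arrays titled GFP-, a 291-fold difference (8.18 ± 0.29, adjusted p = 2.70e-10). Olfr1297 read 14.66 to 15.18 against 5.76 to 8.06 (285-fold). Olfr393 read 13.62 to 14.62 against 5.93 to 6.65 (239-fold), and its lowest array titled GFP+ lay far above its highest array titled GFP-. Olfr1406, Olfr1213, Olfr99, Olfr677, Olfr1178, Olfr390 and Olfr794 completed the 10 largest, at 110- to 207-fold. Olfr677 and Olfr1178 were above the control median on 1 of 4 arrays titled GFP-, and Olfr1406 and Olfr1213 on 2. None of these 10 had a treatment difference that was called, and their vehicle differences were 7.04 to 8.46.

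On the lower side Olfr536 led. It read 7.25, 7.39, 6.65 and 8.49 in arrays titled GFP+ and 13.56, 14.48, 13.82 and 14.15 in arrays titled GFP-, a 94.2-fold difference (-6.56 ± 0.21, adjusted p = 1.27e-10). Olfr309 read 7.62 to 9.30 against 14.57 to 15.30 (81.6-fold). The groups of each of these receptors lay more than 5 log2 units apart. Olfr372 was 48.0-fold (with 1 of 4 arrays titled GFP+ above the control median), Olfr110 40.7-fold and Olfr533 38.9-fold lower. Olfr481 and Olfr613 were at or below the control median in all 4 arrays titled GFP+ and were at least 17.9- and 16.1-fold lower. Olfr1448 (26.6-fold), Olfr1093 (25.8-fold) and Olfr281 (25.4-fold) followed. Olfr221, at 20.8-fold, thus lay outside the 10 lowest receptors of the odor pools.

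By family, class I receptors, the family first known from fish and coded in 1 cluster on chromosome 7, gave 18 higher (16.1%) and 54 lower (48.2%) of 112, with a median of -0.67. The 968 other odorant receptors gave 232 higher (24.0%) and 473 lower (48.9%), with a median of -0.65. The background was 12.8% of all genes higher and 14.7% lower. Within class I, Olfr677 was 147-fold higher (with 1 of 4 arrays titled GFP- above the control median), Olfr629 and Olfr600 at least 14.8- and 14.7-fold higher, Olfr611 18.7-fold higher, Olfr632 higher by 4.25 on the log2 scale, and Olfr613 at least 16.1-fold lower. Of the 15 trace amine-associated receptors, which detect volatile amines, 2 were higher (13.3%, close to the 12.8% of all genes) and 8 lower (53.3%), with a median of -0.82 that ran from -1.42 to -0.65 over the scalings tried. The higher calls numbered 4 without odor pool 1. Taar2 read 8.99, 10.17, 9.59 and 10.36 against 7.69, 5.33, 6.93 and 6.42 (9.10-fold higher, 3.19 ± 0.41). Taar4 (7.29-fold), Taar9 (7.17-fold), Taar3 (6.24-fold), Taar7b (3.53-fold) and Taar7e (2.81-fold) were lower.

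By chromosome the receptor medians were unequal. Of all receptors 23.0% were higher and 48.9% lower, and of all genes 12.8% and 14.7%. On chromosome 16, 24 of 36 receptors were lower and 4 higher (median -1.79), and on chromosome 14, which holds Olfr221, 28 of 39 were lower and 6 higher (median -1.67). Chromosome 9, which holds Olfr937, gave 73 lower and 28 higher of 129 (median -1.30). Chromosome 10 gave 28 higher and 22 lower of 80, with a median of 0.06 that is smaller than the shift of all genes between scalings. The 2 largest sets, on chromosomes 2 and 7, had medians of -0.68 (282 receptors) and -0.81 (230 receptors). These differences among chromosomes were not tested, and their order also depends on few receptors where a chromosome holds few.

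Genes linked to activity in sensory neurons were lower in arrays titled GFP+ more often than higher. Leaving S100a5 out of its list, 7 of 13 measured genes were lower (against 14.7% of all genes) and 1 was higher, with a median of -0.81 against -0.15 for all genes. That median ranged from -1.41 to -0.65 under the scalings tried, and the lower calls numbered 12 of 13 after housekeeping centring and 11 of 13 after median centring. Pcp4l1, a relative of a calmodulin-binding Purkinje cell protein, read 13.30, 13.88, 13.78 and 13.19 in arrays titled GFP+ and 15.32, 15.45, 15.78 and 15.16 in arrays titled GFP- (3.71-fold lower, -1.89 ± 0.10, adjusted p = 9.29e-09). Its groups lay more than 1 log2 unit apart. The leucine-rich repeat membrane protein gene Lrrc3b was 3.12-fold lower (-1.64 ± 0.11), and Kcnmb3, a subunit of calcium-activated potassium channels, 2.91-fold (-1.54 ± 0.08). The protocadherin Pcdh10, which is expressed unevenly among sensory neurons and their glomeruli, was 2.40-fold lower (-1.26 ± 0.15). The exception was Calb2, which encodes the calcium buffer calretinin. It read 16.36 to 16.79 in arrays titled GFP+ and 11.92 to 12.68 in arrays titled GFP-, 18.3-fold higher (4.20 ± 0.13, adjusted p = 1.18e-10).

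Axon guidance genes, which sort sensory axons in the olfactory bulb, had 11 of 22 lower and 1 higher (median -0.35). Over all genes 14.7% were lower and 12.8% higher, and the median was -0.15. Epha5, an ephrin receptor, was at -1.12 ± 0.15, and Kirrel2, a homophilic adhesion molecule whose level follows activity, at -0.92 ± 0.14, with 14.14 to 15.18 against 15.39 to 16.18. Plxna3, Epha7 and Pcdh10 were also lower. Epha5, Kirrel2 and Pcdh10 are counted in the activity-linked list too. Nrcam was the higher member of the axon guidance list (0.77 ± 0.23), but its groups overlapped and 1 of 4 arrays titled GFP- lay above the control median. Presynaptic genes had 9 of 16 lower and 0 higher (median -0.37), led by the synapsin Syn2 (-0.91 ± 0.12), Syn1, Cplx2 and Sv2a. Both medians stayed below 0 under every scaling tried, at -0.95 to -0.19 and -0.96 to -0.20. The lower calls of both lists ranged with the scaling from 6 to 20 of 22 and from 4 to 15 of 16. Presynaptic genes had 5 lower calls without odor pool 1 and 5 without pool 3, axon guidance genes had 7 without pool 3, and Nrcam was not called without pool 2, 3 or 4.

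Mature neuron genes differed by small amounts, while transduction genes were called in both directions and included a few large differences. Of 16 mature neuron genes 8 were lower and 1 higher (median -0.27). The lower members lay between -0.35 (the vesicular glutamate transporter Slc17a6) and -0.28 (the receptor trafficking gene Rtp2). Only 2 were called lower after centring on the list itself, and 15 after median centring. The lower calls numbered 4 without odor pool 1, 3 without pool 3 and 1 without a variance trend. Of 19 transduction genes 9 were lower (47.4%, against 14.7% of all genes) and 4 higher (21.1%, against 12.8%). Their median of -0.15 equalled that of all genes and turned to 0.01 with mature neuron centring, and the lower calls fell to 4 under that scaling and to 4 without a variance trend. The calmodulin-dependent phosphodiesterase Pde1c, which clears cyclic AMP in cilia, was lowest (-0.80 ± 0.09), and the exchanger Slc24a4 was at -0.48. The higher members were Rgs2, a regulator of G protein signalling (at least 37.1-fold), Pde2a (12.5-fold), Camk2b and Grk3 (at least 1.46-fold). Whether these higher signals came from neurons or from other cells, such as blood cells, was not tested. Genes of receptor choice and trafficking gave 5 lower and 3 higher of 18 (median -0.11, 0.05 after mature neuron centring). These lower calls fell to 1 after mature neuron centring, to 1 without a variance trend and to 3 without odor pool 1, without pool 3 and after cyclic loess, and rose to 15 after median or housekeeping centring. Lbr, the lamin B receptor whose absence allows receptor loci to aggregate, was the highest at 1.99 ± 0.24, with 11.04 to 12.74 against 9.83 to 10.22. Of the lower members of this list, Ebf2, Rtp2 and Emx2 also belong to the mature neuron list.

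Apart from receptors, few genes were much lower in arrays titled GFP+: 112 by at least 2-fold and 3 by at least 4-fold. Fxyd2, a regulatory subunit of the sodium pump, was the 1 such gene past 8-fold. It read 7.50, 8.17, 7.21 and 6.96 in arrays titled GFP+ and 11.23, 11.35, 11.46 and 10.75 in arrays titled GFP-, 13.3-fold lower (-3.74 ± 0.21, adjusted p = 2.21e-08). The vehicle pools gave -3.81 for Fxyd2. Galnt15, a glycosyltransferase gene, was 4.54-fold lower (-2.18 ± 0.20) and Ptprn, a protein of dense-core secretory vesicles, 4.28-fold (-2.10 ± 0.14).

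The voltage-gated potassium channel subunit Kcng1 read 8.62, 9.44, 9.75 and 9.54 in arrays titled GFP+ and 10.65, 11.78, 11.51 and 11.11 in arrays titled GFP- (-1.93 ± 0.14, adjusted p = 3.05e-07). Its difference in the vehicle pools was -1.18, and the treatment difference of -0.75 was not called. Avp, the gene of the peptide hormone vasopressin, was 3.53-fold lower (-1.82 ± 0.25), and Caly, which encodes a vesicle protein of neurons, 3.12-fold. The phosphodiesterase Pde10a (-1.63 ± 0.27), the retinoic acid-degrading enzyme Cyp26b1 (-1.61 ± 0.23) and the transcription factor Rfx4 (-1.58 ± 0.13) followed. Deup1, Spon2, Rgs7, Cidea, Hs3st1, Cdh3, Fam169a and Pcsk1, with the activity-linked Pcp4l1, Lrrc3b and Kcnmb3, completed the 20 lowest. Apart from Pcsk1 these lay between -1.89 (Pcp4l1) and -1.49 (Fam169a). Pcsk1, a hormone-processing protease gene, was at or below the control median on all 4 arrays titled GFP+ and above it on 1 of 4 titled GFP-, so its place among the 20 rests on values near background. Galnt15, Deup1 and Spon2 were above the control median on 3 of 4 arrays titled GFP+ and Pde10a on 2.

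**Figure D4:**
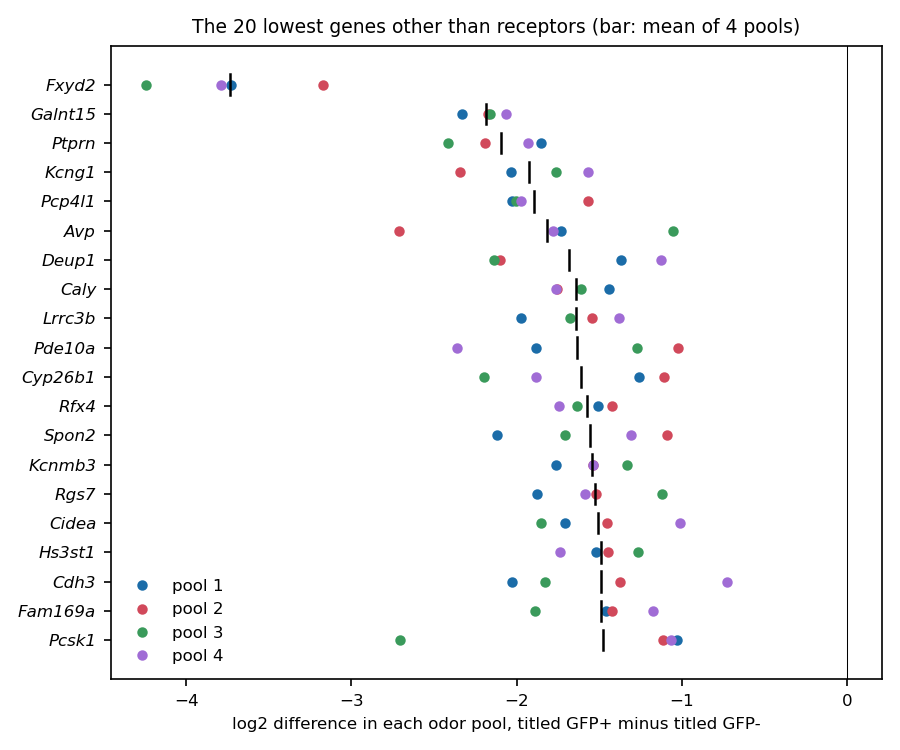
Fraction difference (log2, titled GFP+ minus titled GFP-) in each odor pool for the 20 genes other than receptors with the most negative mean difference; bars mark the mean of 4 pools. Only called genes that were lower in all 4 pools were eligible, so all points lie below 0 by selection. Fxyd2 stands apart at -3.74, and Pcsk1, which is near background in both fractions, has -2.71 in pool 3.

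The higher side was led by genes of blood cells. All 15 measured neutrophil genes were called higher (median 7.88), against 12.8% of all genes. Retnlg, a resistin-like protein of neutrophils, read 17.38, 16.26, 16.96 and 15.39 in arrays titled GFP+ and 8.43, 6.91, 7.84 and 6.55 in arrays titled GFP-, 535-fold higher (9.06 ± 0.16, adjusted p = 3.42e-12). In both fractions pools 1 and 3 were brighter than pools 2 and 4. Mmp9, a gelatinase, was at least 272-fold higher, the collagenase Mmp8 453-fold (with 2 of 4 arrays titled GFP- above the control median), the alarmins S100a9 and S100a8 417- and 394-fold and the granule protein gene Ngp 330-fold. Mean neutrophil signal over the 15 genes was 14.94, 13.69, 14.52 and 12.82 in arrays titled GFP+ and 6.71, 6.24, 6.18 and 5.75 in those titled GFP-. The log2 of their summed signal was 18.74 to 20.20 and 10.51 to 12.23.

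Monocyte and macrophage genes gave 16 of 17 higher (94.1%, against 12.8% of all genes), with a median of 4.43. Ly6c2, a surface antigen of inflammatory monocytes, was 544-fold higher (9.09 ± 0.19) and Fn1, fibronectin, at least 130-fold. Hp (haptoglobin, 412-fold, with 1 of 4 arrays titled GFP- above the control median) and Ly6c1 (396-fold) completed the 10 highest genes of all. The receptor genes of the list ran from Ccr2 (6.12, with 1 of 4 arrays titled GFP- above the control median), Fcgr3 (5.91) and Cd14 (4.43) over Csf1r (3.23) and Adgre1 (1.54) to Mrc1 (1.27) and Cx3cr1 (0.92). Of the complement genes, C1qb was at 1.88 and C1qa at 0.90, and C1qc (0.65) was not called. Major histocompatibility class II genes had 6 of 9 higher (median 1.56, 1.26 with dim members at their bound, H2-Aa at 5.30). B lineage genes had 6 of 10 higher (median 1.39, 1.36 with bounds, and 0.88 without odor pool 1). T and NK genes had 7 of 11 higher (median 1.33, but 0.74 with bounds), and without dim genes 3 of the 6 left were called. Mast cell and basophil genes had 5 of 8 higher (median 1.63, 1.07 with bounds), among them the basophil protease gene Prss34 (5.05), with 2 of 4 arrays titled GFP- above the control median. No member of these 5 lists was called lower, though housekeeping centring gave 1 lower call among class II, 2 among B lineage, 1 among T and NK and 2 among mast cell and basophil genes. Many lymphocyte genes were near background: 7 of 10 B lineage genes and 7 of 11 T and NK genes lay at or below the control median on all arrays titled GFP-, and 1 and 2 more in both fractions.

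The B cell receptor subunit Cd79a shows how pools differed. It read 11.06 in the array titled GFP+ of pool 1 and 7.89, 7.81 and 7.50 in those of pools 2 to 4, while all arrays titled GFP- lay between 4.62 and 5.17. It was at least 9.69-fold higher in arrays titled GFP+ (adjusted p = 0.000277). Jchain, the joining chain of secreted antibodies, was even among pools at 9.68 to 11.09 and at least 40.2-fold higher. Erythroid genes had 9 of 9 higher (against 12.8% of all genes), with a median of 2.55. Car1, a carbonic anhydrase of red cells, read 12.05, 9.60, 12.11 and 9.10 in arrays titled GFP+ against 3.38 to 5.51. It was 87.4-fold higher, but only 1 of the 4 arrays titled GFP- lay above the control median, so this size is uncertain. Rhag was at least 22.9-fold higher. Their calls in the vehicle pools numbered 6 of 9 (median 1.56), and none of the 9 treatment differences was called.

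**Figure D5:**
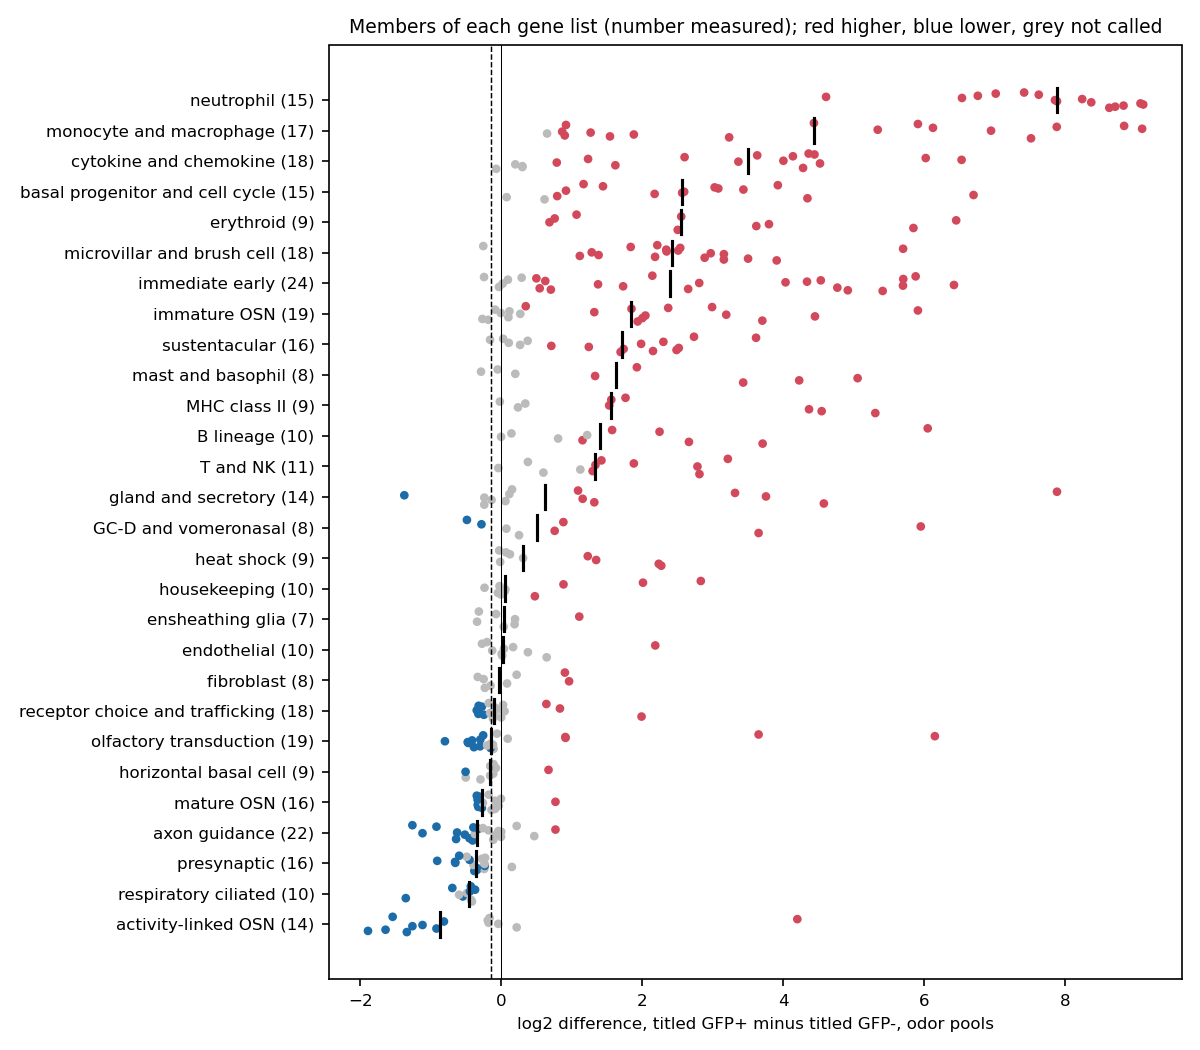
Fraction difference in the odor pools (log2, titled GFP+ minus titled GFP-) of each measured member of the gene lists; red and blue points are called higher and lower, grey points did not pass, black bars are list medians and the dashed line is the median of all genes (-0.15). Neutrophil genes lie farthest to the right (median 7.88) and, with the 2 whiskey lactone receptors not drawn, activity-linked neuron genes farthest to the left (median -0.87, S100a5 included).

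Sustentacular and microvillar genes were mostly higher in arrays titled GFP+ as well. Gland genes were more often higher than lower, depending on the scaling, and respiratory ciliated genes were more often lower. Of all genes 12.8% were higher and 14.7% lower. Sustentacular genes, of the supporting cells that carry xenobiotic enzymes, gave 11 of 16 higher and 0 lower (median 1.71, 1.11 with housekeeping centring, which also gave 3 lower). The keratin gene Krt18 read 11.56, 9.41, 10.77 and 10.29 in arrays titled GFP+ against 6.15 to 7.59 (12.2-fold), and Krt8 was 6.64-fold higher. The sulfotransferase gene Sult1c1 (2.52) and the cytochrome P450 gene Cyp2a5 (2.15) were higher on the log2 scale. Microvillar and brush cell genes gave 17 of 18 higher (median 2.43, 2.20 with dim members at their bound). Alox5 had the largest fitted difference (at least 14.6-fold). Also higher were the cation channel Trpm5 (15.0-fold, 3.90 ± 0.30), the ionocyte regulator Foxi1 (3.50) and the tuft cell regulator Pou2f3 (3.16). Of the 18, 5 lay at or below the control median on all arrays titled GFP-, and 2 more in both fractions, the called Chat included. The part of blood cells in these differences was not tested. Gland genes gave 7 higher and 1 lower of 14 (median 0.62). The split was 7 and 4 with median centring (0.24) and 5 and 7 with housekeeping centring (0.02). Without dim genes 7 of the 9 left were higher and 0 lower, with a median of 1.32. The highest was lactoferrin (Ltf, 7.88), whose gene is also a neutrophil granule gene. Sox9 (4.57), Scgb1c1 (3.75), Lyz1 (3.31, with 1 of 4 arrays titled GFP- above the control median) and Aqp5 (1.32) were higher too. Obp1a, an odorant-binding protein of glands, was the lower member (-1.38 ± 0.32), but its groups overlapped and it lay at or below the control median on all arrays titled GFP+.

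Horizontal basal cell genes were not measurable: 8 of 9, among them Krt5 and Krt14, lay at or below the control median in both fractions, the called members Icam1 and Trp63 included. The same held for 6 of 10 endothelial, 4 of 8 fibroblast and 4 of 7 ensheathing glia genes. The medians of these 3 lists were 0.02, -0.04 and 0.03, and each turned sign under at least 1 scaling. The called members were Eng, Dcn, Thy1 and Sox10, all higher. Eng, Thy1 and Sox10 were above the control median on none of the arrays titled GFP- and on 2, 1 and 2 of those titled GFP+. Of the list named for respiratory ciliated cells, 6 of 10 genes were lower (60%, against 14.7% of all genes) and 0 higher (median -0.47). Ccdc113 led (-1.36 ± 0.20, 2.56-fold). Dnah5 lay at or below the control median in both fractions and Foxj1 was not measured. Which cells carried the signal of this list was not tested. The number of lower calls was 1 without odor pool 1, after cyclic loess and after mature neuron centring, and 3 without pool 3.

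Immature neuron and progenitor genes were higher in arrays titled GFP+. Of 19 immature neuron genes 12 were higher (63.2%, against 12.8% of all genes) and 0 lower (median 1.85). Lower calls appeared with median centring (11 higher, 5 lower) and housekeeping centring (11 higher, 6 lower), and 1 appeared without odor pool 2 and with a random pool block. Nhlh1, a transcription factor of newly formed neurons, read 8.67, 8.60, 9.06 and 9.50 in arrays titled GFP+, while the arrays titled GFP- (4.09 to 4.92) lay at or below the control median. It was at least 12.7-fold higher. Gng8, the G protein gamma subunit of immature neurons, read 9.65 to 10.41 against 6.01 to 6.58 (13.0-fold, 3.70 ± 0.16). In both genes the 4 arrays titled GFP+ lay within 1 log2 unit of each other. The chemokine receptor Cxcr4, which blood cells also express, was 60.0-fold higher, with 2 of 4 arrays titled GFP- above the control median. The cytoskeletal members were divided. Dpysl3 (3.19), Stmn1 (2.00) and Tubb2b (1.85) were called higher. Tubb3 (-0.19), Dcx (-0.27), Crmp1 (-0.01), Stmn2 (0.10), Dpysl5 (0.27) and Dbn1 (-0.09) were not called.

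Progenitor and cell cycle genes gave 13 of 15 higher (86.7%, against 12.8% of all genes) and 0 lower. Their median was 2.56, or 2.17 with dim members at their bound. The proliferation marker Mki67 was at least 72.4-fold higher, with 12.05, 11.48, 12.33 and 10.00 in arrays titled GFP+. The receptor tyrosine kinase gene Kit, a marker of globose basal cells and of mast cells, was 20.3-fold higher (4.34 ± 0.21), with 1 of 4 arrays titled GFP- above the control median. Neurog1, which marks neuronal precursors, was at or below the control median in both fractions, and Lgr5 (0.07) was not called. Median differences of this list were 2.92 and 2.99 in pools 1 and 3 and at most 1.70 in pools 2 and 4. The neutrophil list had 8.26 and 8.94 in pools 1 and 3 and 7.51 and 6.69 in pools 2 and 4. Microvillar genes had the same 2 pools higher (2.74 and 2.72 against 2.09 and 2.14), and sustentacular genes did not. The part of blood cells in the progenitor differences was not tested.

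Immediate early genes were higher in the fraction with less S100a5 transcript. Of 24 measured, 19 were higher (79.2%, against 12.8% of all genes) and 0 lower. Their median was 2.39, against -0.15 for all genes and 1.86 in the vehicle pools. Fos read 16.50, 14.51, 16.04 and 14.56 in arrays titled GFP+ and 11.35, 9.18, 10.75 and 8.70 in arrays titled GFP-, 42.4-fold higher (5.41 ± 0.14, adjusted p = 4.22e-11). Pools 1 and 3 were brighter than pools 2 and 4 in both fractions. Egr2 read 12.33 to 14.42 against 6.32 to 8.38 (85.5-fold, 6.42 ± 0.23). The zinc finger factor gene Egr1 was 51.8-fold, the messenger RNA-decay factor Zfp36 58.7-fold, the antiproliferative gene Btg2 52.0-fold and Fosb 30.1-fold higher. Nr4a1, a nuclear receptor gene (2.81 ± 0.41), and Egr3 (1.37 ± 0.21) were also called higher. Npas4 and Egr4 lay at or below the control median in both fractions, and Arc did so on all arrays titled GFP- and on 3 of 4 titled GFP+, so no difference could be read for these 3 genes. With median centring 2 members of the list were lower, and with housekeeping centring 4.

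The list medians of the immediate early genes were 3.38, 1.80, 3.10 and 1.53 in pools 1 to 4. Cytokine and chemokine genes, with 14 of 18 higher and 0 lower (1 lower with housekeeping centring; median 3.49, 2.28 with dim members at their bound), had pool medians of 4.44, 2.50, 4.03 and 2.44. Il1b, the inflammatory cytokine of myeloid cells, read 14.04, 12.16, 13.47 and 11.71 against 5.66 to 7.71 (64.8-fold). The neutrophil, immediate early and cytokine lists thus had their 2 higher pools in common, but this was not particular to them. Microvillar genes (2.74, 2.09, 2.72 and 2.14 in pools 1 to 4) and gland genes (0.92, 0.39, 0.86 and 0.37) shared these pools. Mature neuron genes were most negative in them (-0.30, -0.12, -0.39 and -0.10), and sustentacular genes had another order (1.91, 0.98, 1.57 and 2.03). The part of blood cells in the immediate early differences was not tested. Heat shock genes gave 4 of 9 higher (44.4%, against 12.8% of all genes) and 0 lower (median 0.31). With median and housekeeping centring 2 and 4 were lower, at medians of -0.07 and -0.29. Hspa1a read 14.54, 14.38, 14.05 and 14.26 against 11.71, 12.68, 11.70 and 12.07 (4.81-fold, 2.27 ± 0.14), and Hspa1b, a near-identical copy whose signal may be shared, was 4.70-fold higher. Dnajb1 (1.23) and Hspb1 were the other two. Hspb1 lay at or below the control median on all arrays titled GFP- and on 2 of 4 titled GFP+, so no size is given for it.

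The list of atypical sensory neurons, which use cyclic GMP or vomeronasal signalling, gave 4 higher and 2 lower of 8. Of all genes 12.8% were higher and 14.7% lower. The median of the list was 0.50, but 0.07 with dim members at their bound and -0.09 with housekeeping centring. Its guanylyl cyclase gene Gucy2d and channel gene Cnga3 lay at or below the control median in both fractions, so its higher members, Gnai2 (61.7-fold), Pde2a, Meis2 (at least 1.11-fold) and Car2, were measured without these defining genes. Gnai2 is also abundant in blood cells and Car2 in red cells. Of 10 housekeeping genes, 4 were higher (40%, against 12.8% of all genes) and 0 lower (median 0.05). With median or housekeeping centring 6 were lower and the median was negative. Housekeeping centring takes the mean of these 10 genes as its reference, so their own values under it are no separate result. The higher genes were Gusb (2.83), the ribosomal protein gene Rplp0 (2.01 ± 0.26), Pgk1 (0.88) and Actb (0.48). Gapdh, Hprt, Ppia, Tbp, Sdha and Ywhaz differed by -0.24 to 0.06 and did not pass.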

How the data were processed

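Biotin-labelled cRNA was hybridised to Affymetrix arrays. The authors deposited log2 signals in 1 table; per the submitters' processing notes it was made with Affymetrix Expression Console. The version, the background step and the normalization have no entry in the labels used here. The log2 scale was read from the values. Of 28846 features, a platform annotation gave 19572 a single gene symbol, 0 several and 9274 none, and all 19572 matched RefSeq (GRCm38.p6) by gene number. The brightest feature over all arrays stood for a gene, giving 19505 genes, and dim genes were kept. The median of 5222 negative control features of an array served as background, and a gene at or below it on all 4 arrays of 1 fraction is given as "at least N-fold" against the mean of those medians. A gene above it on only some arrays of a fraction keeps its fold, whose size is then uncertain. The number of arrays limits the precision.

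Groups and pool numbers came from the titles. Replicates are separate pools of mice. Odorant receptors are the names Olfr plus a number (1080, class I being Olfr543 to Olfr692; 11 names with a further suffix were not counted), and 15 trace amine-associated receptors complete the 1095. Differences were tested with limma 3.58.1 in R 4.3.3 on all 16 arrays, so that vehicle arrays add to the estimate of spread, with each pool as a fixed term (6 residual df), eBayes with a variance trend, two-sided p-values and Benjamini-Hochberg adjustment over all genes at 0.05. The scripts were tested on simulated data. The titles tie the 2 fractions of a pool to the same 3 mice, and their deviations from group means correlated at 0.116 to 0.192 in the odor pools. No 2 arrays were duplicates (smallest SD of differences 0.359).

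The markers, gene lists and named genes were chosen with earlier results of these data known, so counts over a list describe it and support nothing by themselves. Some lists share members, so their counts are not independent of each other. Named genes were S100a5, Omp, Olfr221 and Olfr937, the 10 largest differences in each direction over all genes and over receptors, the 10 highest and 20 lowest other genes (called, 1 direction in 4 pools), up to 6 called members of each list, or the 3 brightest where none passed, and genes called between treatments. Further list members, the neighbours of Olfr221 and Olfr937 and genes given as not called were picked with their values known. Alternatives were other block terms, the odor arrays alone, 4 scalings, a filter at the 30th percentile of mean signal, no variance trend, the mean of a gene's features and leaving out each odor pool.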

Additional observations from a re-analysis of the deposited data

Results flagged for a closer look

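Each of 193 named genes was checked for 1 odor pool whose fraction difference stood apart from the other 3, and chance marks about 1 in 20 such groups. The check marked 13 genes. Among blood cell genes, Cd79a and Cd22 of B cells had high differences in pool 1 (6.18 against 2.72 to 3.19, and 4.00 against 0.58 to 1.01). S100a9 (8.17 against 8.85 to 8.94), Hp (7.10 against 9.06 to 9.43), Rhag (5.19 against 5.97 to 6.12) and Alas2 (1.73 against 2.68 to 2.80) had low differences in pool 4. The basophil protease Mcpt8 (1.91 against 3.74 to 4.06), the gland gene Scgb1c1 (2.00 against 4.17 to 4.58) and the chromatin gene Smchd1 (0.28 against 0.97 to 1.04) had low differences in pool 2. Pcp4l1 was least negative in pool 2 (-1.57 against -2.03 to -1.98), Pcsk1 most negative in pool 3 (-2.71 against -1.11 to -1.03) and Hydin most negative in pool 4 (-0.56 against -0.40 to -0.37). The class I receptor Olfr611 was lowest in pool 3 (3.91 against 4.29 to 4.36). Cd79a, Cd22, Rhag and Mcpt8 lay at or below the control median on all 4 arrays titled GFP-, and Pcsk1 on all 4 titled GFP+, so their pool values are differences from background, not measured sizes. Hp was above the control median on 1 of 4 arrays titled GFP-.

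The fraction difference of Olfr221 differed between odor and vehicle pools by -5.81 (adjusted p = 0.00306 in limma). It was lower in arrays titled GFP+ in 4 of 4 odor pools and higher in 4 of 4 vehicle pools.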

How the results depend on the processing

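Of the counts over all genes, the higher calls fell from 2502 to 1587 after housekeeping centring, and the lower calls moved from 2860 to 12906 and 15297 after median and housekeeping centring and to 1395 and 1218 after cyclic loess and mature neuron centring. These scalings shift every gene of an array, and the median of all genes moved with them. The housekeeping reference is a mean that includes Gusb (2.83) and Rplp0 (2.01), both higher in arrays titled GFP+. Its lower calls, here and in the gene lists, depend on that reference. Leaving out 1 odor pool in turn gave 1632 to 2475 lower and 2077 to 2363 higher calls. With no block the calls were 2343 higher and 2253 lower, and a random pool block (correlation 0.164) gave 2528 and 3037. The odor arrays alone, without the vehicle arrays in the estimate of spread, gave 2375 higher and 2407 lower. Receptor counts stayed at 205 to 272 higher and 491 to 721 lower of 1095 over the scalings. The treatment difference of Olfr221, which the odor arrays alone cannot give, was called under every other alternative tried except the fit with no variance trend, where it was -5.81 (adjusted p = 0.0572) and 0 genes were called; its adjusted p elsewhere was 5.51e-05 to 0.0169, and 0.000353 with no block. Leaving out 1 odor pool in turn gave S100a5 a treatment difference of -0.190 to 0.0034, where all pools gave -0.11. Omp turned to 0.024 after mature neuron centring and Actb to -0.12 after housekeeping centring, which uses Actb itself. No other of the 193 named genes changed direction under the alternatives run, of which the low-signal filter tested 178. Single calls were lost for 4 to 16 named genes under the alternatives other than that filter, where 0 of 178 were lost, and the mean of features, where 0 of 193 were lost. The 4 arrays of a group limit what small differences can show, and members at the control median have only a bound.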
